A study of Mus musculus with 2 samples.

Results

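Oxidative phosphorylation genes were followed through RM-1 mouse prostate tumors treated with vehicle (control, 1 library) or with enzalutamide (ENZ, 1 library). The members were the genes whose symbols begin with mt-, Nduf, Uqcr, Cox4 to Cox8, Atp5 or Sdh, without the pseudogene mark -ps. They numbered 110 of the 32285 genes in the files, of which 13 are encoded by mitochondrial DNA and 97 by nuclear chromosomes. Of the nuclear-encoded members, 36 belong to complex I, 4 to complex II, 8 to complex III, 20 to complex IV and 17 to complex V, and 12 are assembly factors.

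RM-1 is an established mouse prostate cancer cell line, chosen by the study as a model with inborn resistance to enzalutamide, an antagonist of the androgen receptor. In the study's animal work RM-1 cells were placed in the prostate of C57BL/6 mice, the genotype label of both samples is WT, and tissue from a pair of mice gave the droplet libraries of 3′ RNA ends, in which unique molecular identifiers (UMIs) were counted per gene and barcode. The study's methods give a dose and schedule of enzalutamide for such tumors but do not tie them to the sequenced mice, whose age is not given in the sources used here. Immune cells were enriched during sorting, so the proportions of the cell classes are set in part by that step. The cell type label names prostate cancer cells only, yet both libraries held many immune barcodes.

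The respiratory chain passes electrons from NADH and succinate to oxygen in the inner mitochondrial membrane, and complex V uses the resulting proton gradient to make ATP. All of the complexes except complex II mix subunits made inside the mitochondrion with subunits imported from the cytosol, so both genomes are needed to build them. Mitochondrial genes are transcribed as long RNAs that are cut into separate mRNAs, whereas each nuclear member has its own promoter.

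The control library held 170830346 UMIs and the ENZ library 162030149. Below, paired values are given in the order control, then ENZ. Barcodes with at least 1000 UMIs were kept with no limit on mitochondrial UMIs, which left 12348 and 10354 barcodes with medians of 6272 and 7953 UMIs. The libraries shared 40 of these barcode sequences. Marker gates found 3953 and 4338 cancer cells and 4947 and 3514 immune cells. Among the immune cells were 478 and 672 T cells, 352 and 159 NK cells, 1062 and 372 neutrophils, 1285 and 1420 monocytes, 1576 and 764 macrophages and 169 and 110 dendritic cells. Fibroblasts numbered 84 and 75. B cells and endothelial cells had fewer than 50 barcodes in each library and were given no value, and 3326 and 2405 barcodes passed no gate.

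The gated cancer cells carried the keratin markers Krt8 at 481 and 533 CPM (counts per 1000000 UMIs) and Krt18 at 391 and 376 CPM. Epcam was low in them, at 3.42 and 3.16 CPM, and Krt7 was near 0, at 0.0852 and 0.0793 CPM. Neutrophil transcripts were present in the cancer gate and differed between the libraries. The 6 neutrophil markers summed to 161 and 44.7 CPM, led by S100a9, and none was at 0 and all were lower in ENZ. Cancer markers in the immune gates summed to 51.2 and 67.9 CPM, led by Krt8. The part of either in the results was not tested, beyond a subtraction of RNA outside cells given in the closing section.

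With 1 library per condition there is no replicate check and no test between conditions. The treatment, the mouse and the preparation of the library cannot be told apart. Levels are the UMIs of the members summed over a class and scaled to CPM, and the intervals in parentheses are 95% intervals that cover counting error only. A gene was called higher or lower where the whole interval of its ratio of ENZ over control lay more than 25% above 1 or more than 20% below 1, and at least 50 CPM were required in 1 of the libraries. A CPM is a share of the RNA counted in a class, so fewer transcripts of a gene and more transcripts of other genes give the same value. Counts of 3′ ends carry no length term, and levels of different genes are set side by side only as shares of UMIs.

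Sequences are shown first for the pair of mitochondrial genes that overlap most and for the promoters of 3 nuclear members described below. mt-Atp8 (chrM:7766-7969, GRCm38, plus strand) and mt-Atp6 encode subunits of the membrane part of complex V and lie on a single mRNA. They share the 43 bases at chrM:7927-7969, in which the capitals mark the start codon of mt-Atp6.
mt-Atp8 and mt-Atp6, shared: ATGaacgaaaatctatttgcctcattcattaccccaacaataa
mt-Nd4l and mt-Nd4 share 7 bases, and mt-Nd5 and mt-Nd6 share 14 bases on opposite strands. How reads in shared bases were assigned is not given in the sources used here, so the single values of these genes are uncertain.

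RefSeq promoter windows of GRCm38.p6, 300 bases around the start, were matched for 79 of the 97 nuclear-encoded members. Motifs of factors known for regulating respiratory genes were searched on both strands. The NRF1 motif GCGCATGCG was found in 10 of these windows, or 12.7%, and in 1.95% of the promoters of 27025 genes. With any base in the middle, GCGCNTGCG, which includes the former, it was found in 28 windows, or 35.4%, and in 7.12% of all promoters. The YY1 motif AAGATGGCG was found in 10.1% and 1.64%, the GABPA motif CCGGAAGT in 6.33% and 4.31%, and the ERRA motif TCAAGGTCA in 2.53% and 0.466%. The 130 bases before the start are printed for Sdha (chr13:74350241-74350370), the nuclear-encoded member with the highest ratio of ENZ over control in cancer cells among those past 50 CPM, for Atp5g2 (chr15:102671048-102671177), the most abundant nuclear-encoded member of complex V in control cancer cells, and for Uqcrh (chr4:116075071-116075200), that of complex III. All 3 are on the minus strand, and capitals mark matches to GCGCNTGCG in Sdha and Atp5g2 and to the GABPA motif in Uqcrh.
Sdha: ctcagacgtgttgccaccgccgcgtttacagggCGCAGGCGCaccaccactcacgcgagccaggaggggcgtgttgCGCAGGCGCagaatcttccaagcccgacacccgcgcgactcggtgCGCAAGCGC
Atp5g2: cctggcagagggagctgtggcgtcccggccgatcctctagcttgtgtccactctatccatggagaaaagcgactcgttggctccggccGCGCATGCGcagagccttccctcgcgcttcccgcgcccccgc
Uqcrh: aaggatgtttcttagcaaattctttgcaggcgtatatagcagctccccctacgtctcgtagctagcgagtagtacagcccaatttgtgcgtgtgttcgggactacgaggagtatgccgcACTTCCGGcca
Sdha held 3 matches and Atp5g2 1. The RefSeq starts of Sdha and Atp5g2 lie inside the GENCODE spans of these genes given below. A match describes letters in these windows and is not a bound site.

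The share of RNA given to oxidative phosphorylation differed widely between cell classes. The 13 mitochondrial-encoded genes took 31539 and 31219.6 CPM of cancer cells, and macrophages, above them in control and below them in ENZ, with 32477 and 28575 CPM. T cells (27809 and 21012), monocytes (24833 and 21632), NK cells (23705 and 18899.7), dendritic cells (22959 and 17766) and fibroblasts (20003 and 16062) followed in the control order. Neutrophils stood far below, at 10054 and 7943 CPM.

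**Figure D1:**
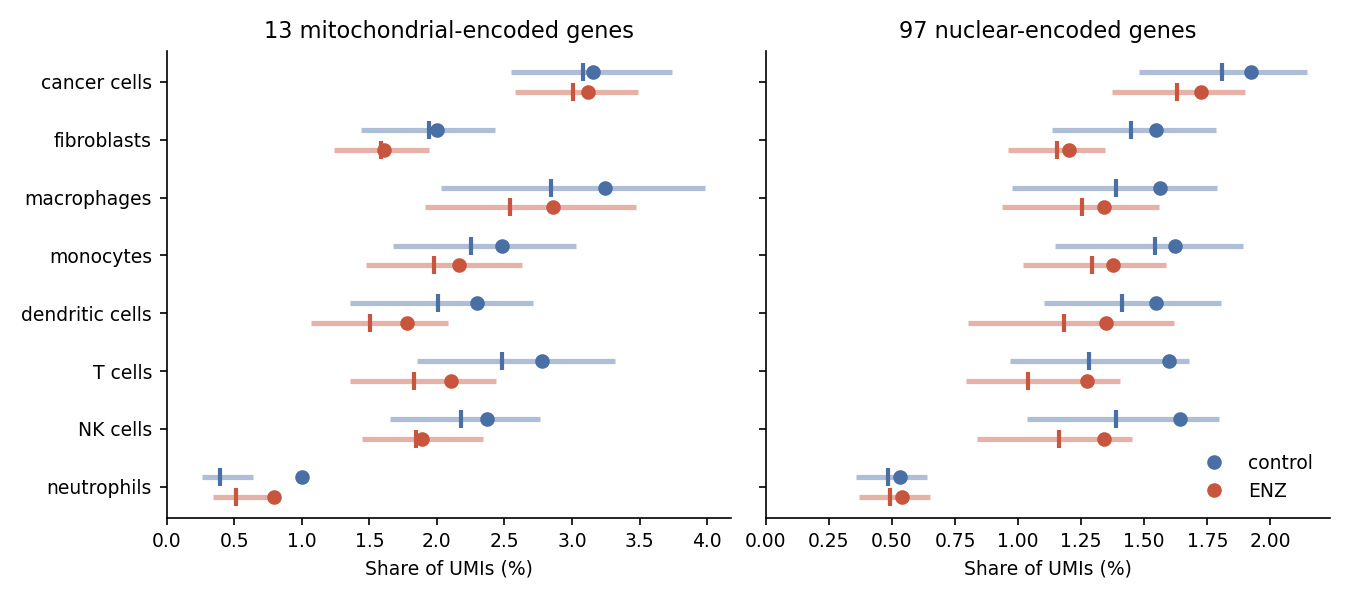
Share of UMIs (%) of the 13 mitochondrial-encoded and the 97 nuclear-encoded genes in 8 gated classes of the control and ENZ libraries, 1 panel each. Points are the summed UMIs of a class, ticks the median barcode and bars the 25th to 75th percentile of barcodes, and the points of neutrophils lie below those of the other classes in both panels.

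Nuclear-encoded members took 19218 and 17249.7 CPM in cancer cells, above every other class in each library, and 5313 and 5407 CPM in neutrophils, below every other class. The median neutrophil barcode held 0.395 and 0.511% mitochondrial-encoded UMIs, and the 95th percentile was 3.78 and 1.94%. In cancer cells the medians were 3.08 and 3.01%. Neutrophils also had few UMIs per barcode, with medians of 1951.5 and 2056 against 21915 and 22594 in cancer cells. The part of depth in this difference was not tested.

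All 13 mitochondrial-encoded genes were lower in neutrophils than in the other gated classes together, in both libraries, with median ratios of 0.303 and 0.242. Of the 79 nuclear-encoded members past 50 CPM in this comparison, 77 were lower in both libraries and 2 were higher, by intervals that left out 1. Among all 4614 genes compared in this way 56.3% were lower and 33.5% higher in neutrophils. The lowest control ratio was that of Ndufa4, a subunit of complex IV, at 31.8 CPM in control neutrophils against 332 CPM elsewhere.

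The exceptions, named after their values were seen, were Ndufaf7 and Ndufs7. Ndufaf7, a methyltransferase that assists assembly of complex I, stood at 69.2 CPM in control neutrophils against 30.4 CPM elsewhere, and at 76.6 against 28.4 CPM in the ENZ library. Ndufs7, an iron-sulfur core subunit of complex I, stood at 142 against 89.3 CPM, and at 94.9 against 70.4 CPM. Both genes belong to complex I or its assembly, whose other members past 50 CPM were lower in neutrophils. Most UMIs of the other gated classes together came from cancer cells. In control, Ndufs7 in pooled immune cells, given below, lay above its level in neutrophils. Its higher value in neutrophils is thus one against a total made mostly of cancer cells.

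Cancer cells gave more of their RNA to most nuclear-encoded members than immune cells did. Of 78 members past 50 CPM in this comparison, 45 were called higher in cancer cells in both libraries and 4 lower, against 43.4% and 32.1% of 4668 genes. The median log2 ratio of cancer over immune cells was 0.46 and 0.50. In complex IV, the terminal oxidase, 4 of 12 were called higher, with medians of 0.051 and 0.10. In complex I, which takes electrons from NADH, 21 of 35 were higher and 2 lower, with medians of 0.48 and 0.57. In complex III 6 of 8 were higher.

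The genes at both ends of the control ratios, chosen after their values were seen, were Ndufb9 and Ndufs3 against Ndufs7 and Atp5d. Ndufb9, an accessory subunit of complex I, was counted at 437 CPM in cancer and 173 CPM in immune cells of the control library, a ratio of 2.53 (2.45 to 2.60), and the ENZ ratio was 2.60. Ndufs3, a core subunit of complex I, gave ratios of 2.41 and 2.44. Ndufs7 was counted at 72.1 CPM in cancer and 160.1 CPM in immune cells of the control library, and its ratios were 0.451 and 0.464. Atp5d, the delta subunit of complex V, gave 0.515 and 0.597. Ndufs3 and Ndufs7, both core subunits of complex I, thus lay on opposite sides.

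**Figure D2:**
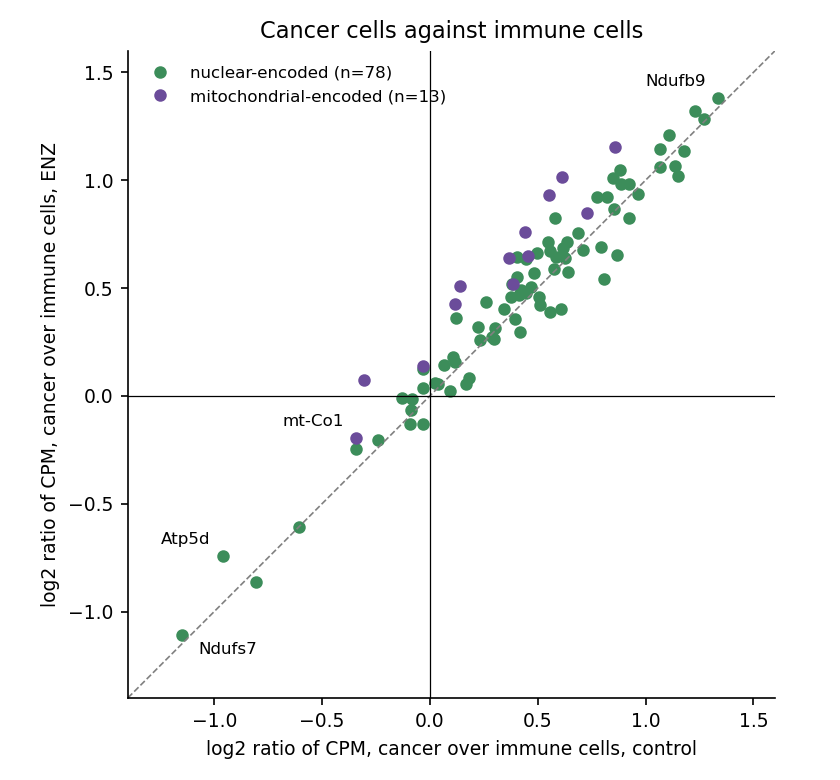
log2 ratio of CPM of cancer over immune cells in control (horizontal axis) and ENZ (vertical axis) for the 78 nuclear-encoded and 13 mitochondrial-encoded genes past 50 CPM, 1 point per gene. Most points lie above 0 on both axes, with Ndufb9 at the upper end and Ndufs7 at the lower end, and the 13 mitochondrial-encoded points lie above the dashed line of equal ratios.

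Of the mitochondrial-encoded genes, 8 of 13 were called higher in cancer cells in both libraries and 0 lower, beside the 43.4% and 32.1% of all genes. mt-Cytb, the cytochrome b of complex III, stood at 3872 and 3426 CPM in cancer cells and 2137 and 1538 CPM in immune cells. mt-Co1, the catalytic subunit of complex IV, was placed the other way, with 3501 and 3939 CPM in cancer cells and 4433 and 4512 CPM in immune cells, and was not called. The 3 mitochondrial-encoded genes of complex IV had a median log2 ratio of -0.31 in control and 0.073 in ENZ, and 0 were called.

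Between the libraries, the mitochondrial-encoded sum of cancer cells differed little, and the nuclear-encoded sum was lower in ENZ. The mitochondrial-encoded ratio of ENZ over control was 0.990 (0.988 to 0.991), and its side of 1 depended on the scaling. With the UMIs of Gm42418, AY036118, Lars2 and Cmss1, genes to which reads of ribosomal RNA are known to be assigned, left out of the total, it was 1.011 (1.010 to 1.013). The nuclear-encoded ratio was 0.898 (0.896 to 0.899), and 0.917 with those UMIs left out. Mitochondrial-encoded UMIs per nuclear-encoded UMI, which no choice of total affects, were 1.64 and 1.81.

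Immune cells were lower in ENZ for both kinds of gene. The mitochondrial-encoded sums were 27194 and 22552 CPM, a ratio of 0.829 (0.826 to 0.832), and the nuclear-encoded sums 14954 and 13039 CPM, a ratio of 0.872 (0.867 to 0.876). Without the ribosomal RNA-like UMIs the ratios were 0.879 and 0.924. The ribosomal RNA-like genes took 1.38% and 3.46% of the UMIs of cancer cells, and 4.34% and 9.77% of those of immune cells. Ribosomal protein genes took 22.4% and 20.7% in cancer cells, and 17.3% and 14.1% in immune cells. Their part in the ratios beyond the change of total was not tested.

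**Figure D3:**
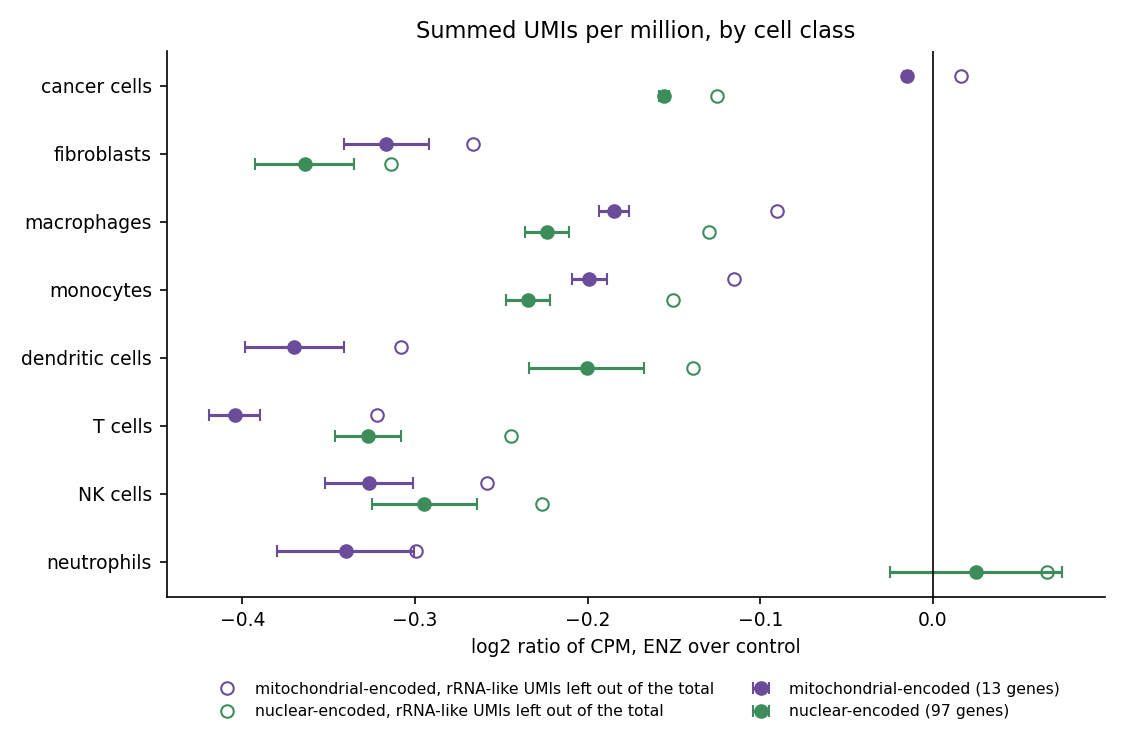
log2 ratio of CPM, ENZ over control, of the mitochondrial-encoded and nuclear-encoded genes summed, in 8 gated classes, with 95% intervals of counting error as bars. Open circles leave ribosomal RNA-like UMIs out of the total, and all classes lie below 0 except the mitochondrial-encoded genes of cancer cells, whose sign depends on the total, and the nuclear-encoded members of neutrophils.

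The mitochondrial-encoded log2 ratio was -0.40 in T cells, -0.37 in dendritic cells, -0.34 in neutrophils, -0.33 in NK cells, -0.32 in fibroblasts, -0.20 in monocytes and -0.18 in macrophages. Counting intervals of neighbours in this order overlapped, except between fibroblasts and monocytes. In neutrophils the sum and the typical barcode went opposite ways. The 25th, 50th and 75th percentile barcodes of neutrophils held more mitochondrial-encoded UMIs in ENZ, at 0.259 and 0.342%, 0.395 and 0.511% and 0.641 and 0.747%, while the 95th percentile was lower, at 3.78 and 1.94%. The nuclear-encoded log2 ratio was -0.36 in fibroblasts, -0.33 in T cells, -0.29 in NK cells, -0.23 in monocytes, -0.22 in macrophages and -0.20 in dendritic cells. Neutrophils had a ratio of 1.02 (0.983 to 1.05), an interval that held 1, and of 1.047 (1.011 to 1.084) without ribosomal RNA-like UMIs, an interval above 1.

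T cells with a UMI of Cd8a or Cd8b1, which encode the CD8 co-receptor, numbered 96 and 163. Their mitochondrial-encoded sums were 29071 and 21541 CPM and their nuclear-encoded sums 18933 and 14298 CPM. T cells without such UMIs and without a UMI of Foxp3, the regulatory T cell factor, had 28134 and 21256 CPM and 14234 and 11919 CPM. Both groups were lower in ENZ for both kinds of gene. Macrophages with a UMI of the mannose receptor gene Mrc1 had ratios of 0.872 and 0.852 for mitochondrial-encoded and nuclear-encoded genes, and those without had 0.923 and 0.876.

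In cancer cells the nuclear-encoded ratio was below 1 at every depth. Over 5 groups of cancer cells of rising UMI count it ran from 0.882 in the shallowest to 0.906 in the deepest, while the nuclear-encoded share in control went from 1.597% to 2.04%. The mitochondrial-encoded ratio went from 0.912 to 1.04, so its side of 1 also differed with depth. Nuclear-encoded ratios of monocytes and T cells were also below 1 in each of 5 such groups of their own. Macrophages were not alike over depth, with 1.13 (1.08 to 1.18) in the shallowest group and between 0.797 and 0.924 in the other 4. The mitochondrial-encoded ratio of neutrophils ran from 0.602 to 1.253 over their groups, with no order by depth. Dividing cancer cells, by the summed UMIs of 8 mitotic genes, had nuclear-encoded sums of 20306 and 18669 CPM, and non-dividing cells 17719.7 and 16052 CPM. The limits were 10 and 2 such UMIs per 10000, and cancer cells between them had 20404 and 18144 CPM. Mitochondrial-encoded sums were 31136 and 31336 CPM in dividing, 32231 and 31060.3 CPM in non-dividing cells and 30766 and 31531 CPM between the limits. Dividing cells were deeper, with medians of 32207.5 and 33734.5 UMIs against 17791 and 19216 in non-dividing cells. The part of depth in this contrast was not tested.

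Of the 97 nuclear-encoded members, 78 passed 50 CPM in cancer cells. Of these 0 were called higher and 1 lower, against 3.38% and 2.96% of 3643 genes. With 1 call the share cannot be set apart from that of all genes. The count of calls ran from 0 to 8 under other ways of processing, given in the closing section. The ratios of 69 lay below 1 and those of 9 above, with a median log2 ratio of -0.15 beside 0.058 for all genes past 50 CPM. The median was -0.16 in complex I, -0.092 in complex II, -0.18 in complex III, -0.16 in complex IV and -0.15 in complex V. The 2 assembly factors past 50 CPM went the other way, with a median of 0.012. Members with the motif GCGCNTGCG had a median of -0.13 (24 genes) and those without it -0.16 (42 genes). For the GABPA motif the order was the other way, with -0.22 (5 genes) and -0.15 (61 genes), and the medians with and without the YY1 motif were -0.14 and -0.16. These are descriptions over few genes.

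**Figure D4:**
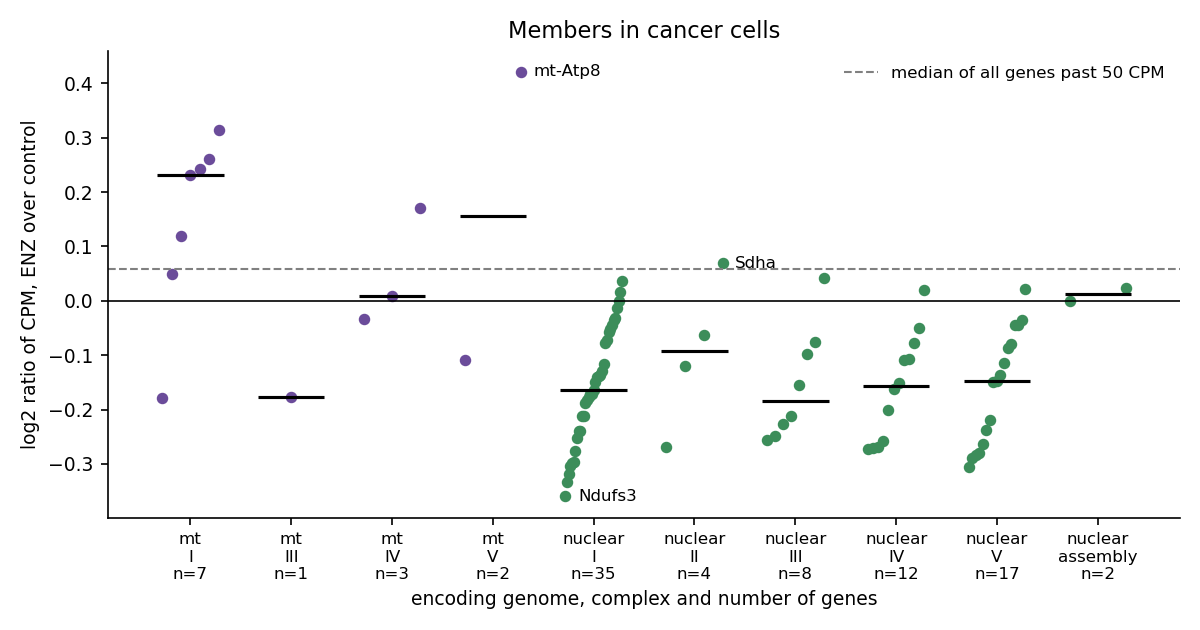
log2 ratio of CPM, ENZ over control, of each member past 50 CPM in cancer cells, by encoding genome and complex. Bars are medians and the dashed line is the median of all genes past 50 CPM (0.058), and most nuclear-encoded members lie below 0 with Ndufs3 lowest, while mt-Atp8 is highest.

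The member called lower was Ndufs3 (chr2:90894634-90904827, minus strand), at 132 and 103 CPM, a ratio of 0.779 (0.760 to 0.799), and this call was lost under 5 other ways of processing given in the closing section. By the interval bound nearer to 1, the next lowest were Ndufv2 at 201 and 159 CPM (ratio 0.794) and Atp5g1 at 442 and 357 CPM (ratio 0.809). Ndufv1 at 71.9 and 57.7 CPM and Ndufb8 at 187 and 152 CPM followed, with ratios of 0.802 and 0.814. Ndufv1 and Ndufv2 encode the NADH-oxidizing end of complex I, Ndufb8 an accessory subunit, and Atp5g1 a copy of the c subunit of complex V.

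At the other end, Sdha (chr13:74322254-74350280, minus strand), the flavoprotein of complex II that oxidizes succinate, stood at 65.8 and 69.0 CPM, a ratio of 1.05 (1.02 to 1.08). Uqcrq of complex III stood at 297 and 306 CPM, Ndufa6 of complex I at 183 and 187 CPM, Cox7c of complex IV at 524 and 531 CPM and Ndufa1 of complex I at 82.1 and 83.0 CPM. None of these 5 came near a call, and the interval of Ndufa1 held 1.

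The most abundant nuclear-encoded member of each complex lay below 1. Ndufb9 stood at 437 and 378 CPM, Sdhb, an iron-sulfur subunit of complex II, at 106 and 97.3 CPM, and Uqcrh of complex III at 436 and 392 CPM. Cox4i1, subunit 4 of complex IV, stood at 706 and 590.3 CPM, a ratio of 0.836. Atp5g2 (chr15:102662864-102672352, minus strand), another copy of the c subunit, stood at 837 and 689.9 CPM, a ratio of 0.824, and Atp5g3, which encodes the same mature protein, at 335 and 327 CPM, a ratio of 0.976 (0.962 to 0.990). The c subunit genes thus differed among themselves by more than counting error.

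Lower calls were more frequent in several other classes. In T cells 15 of 70 were called lower and 0 higher, against 6.79% and 6.32% of all genes. In fibroblasts 11 of 76 were called lower and 0 higher (7.77% and 6.94% of all genes), and in monocytes 9 of 69 were called lower and 0 higher (7.22% and 7.91%). These shares lay above the background. In macrophages 9 of 74 were called lower and 1 higher (8.71% and 12.3%), a share of lower calls near that of all genes. In NK cells 5 of 73 were called lower and 0 higher (2.69% and 2.84%). Differences from the shares of all genes were not tested. A call depends on the number of UMIs as well as on the ratio, and all genes were not matched to the members by level. Dendritic cells had no call among 70 members (4.29% and 7.25%), and neutrophils none among 38 (5.16% and 5.2%). Some markers of the classes differed between the libraries, such as Chil3 in monocytes (642 and 2584 CPM) and Mrc1 in macrophages (634 and 1332 CPM). Others differed less, such as Vcan in monocytes (774 and 735 CPM) and C1qa in macrophages (1840 and 1649 CPM). The part of the make-up of a class in its calls was not tested.

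Over the pooled immune cells 6 of 72 were called lower and 0 higher (8.42% and 10.4%), a share close to the background. The lower genes were Atp5c1, Atp5d, Atp5g1 and Atp5g2 of complex V and Ndufb5 and Ndufs8 of complex I. Among barcodes that passed no gate 6 of 75 were lower and 0 higher (5.91% and 3.38%), and over all barcodes 1 of 77 and 0 (6.06% and 5.09%).

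The lower members of T cells came from complexes I, IV and V. Those of complex I were Ndufs3, Ndufs8, Ndufv2, Ndufb2, Ndufb5 and Ndufb8. Cox4i1, Cox5a, Cox7a2l, Cox8a and Ndufa4, counted with complex IV, were also called lower, as were Atp5d, Atp5g1, Atp5g2 and Atp5o of complex V. Cox4i1 stood at 868 and 643 CPM in T cells, a ratio of 0.740 (0.698 to 0.785), and Ndufs3 at 72.2 and 45.4 CPM, a ratio of 0.629 (0.506 to 0.781). In fibroblasts Ndufv1 and Ndufv2, the NADH-oxidizing subunits, were both called lower, at 69.8 and 39.4 CPM and 131 and 68.8 CPM. Cox5a, an accessory subunit of complex IV, was called lower in T cells, at 326 and 231 CPM, and in fibroblasts, at 217 and 137 CPM.

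Atp5d, Atp5g2 and Ndufs8 were each called lower in 4 of the 8 classes, the most of any nuclear-encoded member. Atp5d stood at 388 and 269 CPM in T cells, 442 and 302 CPM in NK cells, 384 and 267 CPM in monocytes and 337 and 207 CPM in macrophages. In neutrophils, with 98.3 and 99.7 CPM, it was not called. Ndufs8, an iron-sulfur subunit of complex I, stood at 72.6 and 42.8 CPM in T cells, 88.6 and 57.1 CPM in monocytes, 81.2 and 52.0 CPM in macrophages and 68.2 and 35.6 CPM in fibroblasts. Sdha in macrophages was the member called higher, at 51.3 and 73.2 CPM, a ratio of 1.43 (1.253 to 1.627).

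Across classes, 67 nuclear-encoded members passed 50 CPM in each of the 7 classes other than neutrophils, which had 38 members past 50 CPM, 22 above 1 and 16 below. The ratios of 43 of the 67 lay below 1 in all 7 classes and those of 57 in at least 6. Of all 1765 genes past 50 CPM in these classes, 23.0% lay below 1 in all and 32.9% in at least 6. The classes come from the same pair of libraries and are not replicates. The share of the ribosomal RNA-like genes was larger in ENZ in each of these classes, and without those UMIs the nuclear-encoded sums were still below 1 in all 7, at 0.844 in T cells and 0.804 in fibroblasts.

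Within the mitochondrial genome the genes differed from each other. In cancer cells mt-Atp8 was called higher, at 318 and 425 CPM, a ratio of 1.34 (1.32 to 1.36), and none of the 13 was called lower. mt-Nd4l at 370.0 and 459.8 CPM, mt-Nd3 at 258 and 309 CPM, mt-Nd5 at 450.0 and 532 CPM and mt-Nd6 at 66.3 and 77.8 CPM, all subunits of complex I, had ratios of 1.24, 1.20, 1.18 and 1.17. These 5 are the least counted of the 13 genes. mt-Nd2 stood at 1819 and 1974 CPM, mt-Nd4 at 1929 and 1996 CPM, mt-Co1 at 3501 and 3939 CPM and mt-Co2, the subunit of complex IV that receives electrons from cytochrome c, at 4763 and 4794 CPM. The other 4 lay below 1. They were mt-Atp6 at 8258 and 7656 CPM, mt-Co3 at 4155 and 4058 CPM, mt-Nd1 at 1779 and 1571 CPM and mt-Cytb at 3872 and 3426 CPM.

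In the other 7 gated classes, all calls of mitochondrial-encoded genes were lower, whereas 2 of 13 were called higher and 0 lower among barcodes that passed no gate, and 1 higher and 0 lower over all barcodes. mt-Atp6 was called lower in 7 of the 8 classes, cancer cells being the exception, mt-Co3 and mt-Cytb in 5 each and mt-Co2 in 4. In T cells mt-Atp6 stood at 6438 and 4361 CPM, a ratio of 0.677 (0.663 to 0.692), and in macrophages at 7164 and 5543 CPM, a ratio of 0.774 (0.763 to 0.784). mt-Cytb stood at 2247 and 1532 CPM in T cells and 2695 and 1979 CPM in macrophages. Of the 13 genes, 5 were called lower in T cells, 3 in NK cells, 3 in neutrophils, 2 in monocytes, 2 in macrophages, 4 in dendritic cells and 3 in fibroblasts, beside the background shares given above. Those shares are of genes not matched to these 13 by level. The calls in neutrophils, where 12 of the 13 passed 50 CPM, rest on the summed UMIs, and the median neutrophil barcode went the other way, as given above.

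As shares of the mitochondrial-encoded UMIs, which no choice of total affects, several differences recurred across classes. The share of mt-Co1 was higher in ENZ in all 8 classes, with intervals apart in 8, at 11.1% and 12.6% in cancer cells and 16.30% and 20.01% in pooled immune cells. The shares of mt-Atp8, mt-Nd4l, mt-Nd4 and mt-Nd5 were also higher in all 8, with intervals apart in 6 for each. The share of mt-Atp6 was lower in all 8 with intervals apart in 8, at 26.2% and 24.5% in cancer cells, and those of mt-Co3 and mt-Cytb were lower in 7 each. RNA in barcodes with at most 100 UMIs, which is mostly RNA outside cells, differed in the same direction for these 8 genes, with mt-Co1 at 12.2% and 13.8% and mt-Atp6 at 27.20% and 24.95%. Treatment and library preparation cannot be told apart here.

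**Figure D5:**
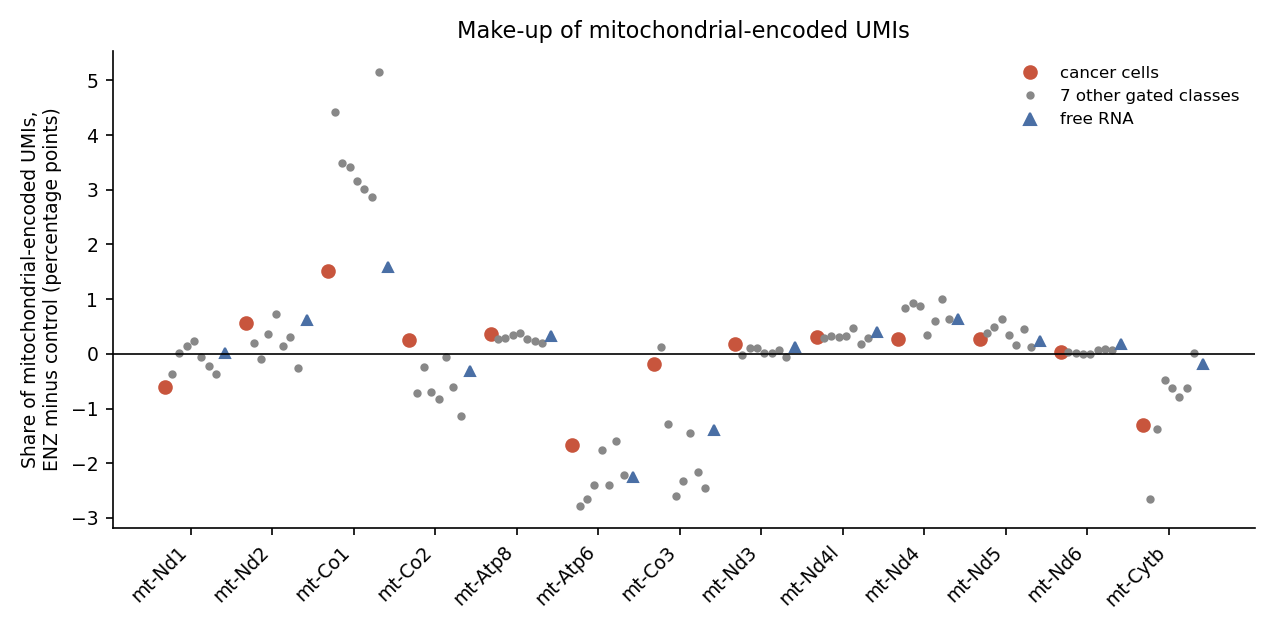
Difference between ENZ and control, in percentage points, of the share of each of the 13 genes in the mitochondrial-encoded UMIs, for cancer cells, the 7 other gated classes and RNA outside cells (triangles). mt-Co1 lies above 0 and mt-Atp6 below 0 in every class.

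The counts of mt-Atp8 and mt-Atp6, whose overlap is printed above, parted although both lie on a single mRNA. There were 3.85 and 5.56 mt-Atp8 UMIs per 100 mt-Atp6 UMIs in cancer cells, a ratio of 1.44. Over the other classes this ratio ran from 1.30 in neutrophils to 1.57 in dendritic cells, and it was 1.56 in RNA outside cells. For mt-Nd4l per 100 mt-Nd4 the values were 19.2 and 23.0 in cancer cells, and NK cells were placed the other way with 23.1 and 22.2.

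Tissue-specific forms of complex IV subunits were scarce. Cox4i2, a form of subunit 4 known from lung, stood at 0.303 and 0.361 CPM in cancer cells and 6.30 and 4.02 CPM in immune cells, whereas Cox4i1 reached 833 and 679 CPM in immune cells. In neutrophils Cox4i2 stood at 10.6 and 8.51 CPM, from 24 and 7 UMIs, against 1.46 and 0.848 CPM over the other gated classes. Most UMIs of that total came from cancer cells, and the pooled immune values of Cox4i2 lay between it and neutrophils. Cox6a2, the heart and muscle form of subunit 6a, stood at 0.133 and 0.0617 CPM in cancer cells and 7.31 and 6.67 CPM in NK cells, the latter from 14 and 6 UMIs. Cox7a1, another muscle form, stood at 2.08 and 1.82 CPM in cancer cells.

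Ndufa4l2 (chr10:127514967-127517154, plus strand), a relative of Ndufa4 known for its response to low oxygen, was the 1 nuclear-encoded member with at least 50 CPM in a class that was at least 4 times higher in it than in the other classes together, in both libraries. It stood at 244 and 261 CPM in fibroblasts against 0.847 and 0.601 CPM over the other gated classes together, which are 288-fold (234 to 358) and 434-fold (339 to 562) differences. Among all 3747 genes compared, 9.85% were at least 4 times higher in fibroblasts. Ndufa4 itself stood at 239 and 135 CPM in fibroblasts and was called lower.

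Mitophagy, the removal of damaged mitochondria by autophagy, is named in the title of the series and was followed by a list of 14 genes. In cancer cells 7 of them passed 50 CPM, of which 0 were called higher and 0 lower, against 3.38% and 2.96% of all genes, which leaves little to be read from so short a list. Pink1, a kinase that accumulates on damaged mitochondria and is named here for its place in that title although it was under 20 CPM, stood at 18.8 and 18.2 CPM, a ratio of 0.966 (0.908 to 1.03). The receptor genes differed in direction, with Sqstm1 at 709.9 and 658 CPM, Tax1bp1 at 154 and 172 CPM and Optn at 18.8 and 25.3 CPM. In macrophages 1 of 6 genes past 50 CPM was called higher and 1 lower, against 12.3% and 8.71% of all genes. Bnip3, a mitophagy receptor that responds to low oxygen, was the higher, at 48.2 and 71.8 CPM, and Map1lc3b, a coat protein of autophagosomes, the lower, at 207 and 153 CPM.

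Other mitochondrial lists had no call in cancer cells, beside the same 3.38% and 2.96% of all genes. Of 13 genes of mitochondrial biogenesis and DNA maintenance, 1 passed 50 CPM, the transcription factor gene Nrf1, at 60.5 and 71.1 CPM. Polg2, the accessory subunit of the mitochondrial DNA polymerase, stood at 26.2 and 16.9 CPM, and Tfam, which packages mitochondrial DNA, at 40.2 and 38.4 CPM. The mitochondrial ribosomal protein genes, 52 of 78 past 50 CPM, had a median log2 ratio of -0.18, close to that of the nuclear-encoded members. The median was -0.094 for 15 of 27 import genes, -0.068 for 11 of 14 citric acid cycle genes and 0.0079 for 5 of 17 other assembly factors.

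Barcodes with more than 20% mitochondrial-encoded UMIs were rare, with 95 (0.769%) and 83 (0.802%), and 71 and 76 of them passed no gate. Across single cancer cells thinned to 5000 UMIs, mitochondrial-encoded and nuclear-encoded counts had a Spearman correlation of -0.19 in control (3846 cells) and 0.065 in ENZ (4234 cells). Cells of a library share its preparation and their counts share a total, and such weak values are given as a description.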

How the data were processed

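The authors' deposited 10x matrices held whole-number UMI counts per gene and barcode, not normalized, for 2 libraries with unfiltered barcodes. The submitters' processing notes name Cell Ranger 2.1.1 and mm10, whereas the deposited matrix headers name Cell Ranger 7.2.0. The handling of introns and the annotation release are not given in the sources used here. Which of these versions made the values was not settled, and the choice of annotation could move the counts of overlapping genes.

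Barcodes with at least 1000 UMIs were gated by markers. A class needed at least 3 marker UMIs from at least 2 markers, a score of at least 5% of that of its 50 highest barcodes and 2 times the score of the next class. This scoring rule was set after the marker counts were seen. No doublet caller was run, and an alternative left out the 5% of barcodes with the most UMIs. UMIs were summed per class and scaled to CPM. Levels carry exact Poisson 95% intervals, ratios exact conditional binomial intervals and shares Clopper-Pearson intervals. Cells of a library are not replicates, and no test between conditions was made.

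The members, gene lists and markers were chosen with earlier results of these data known. Genes were named by rule, which took all 13 mitochondrial-encoded genes, the most abundant nuclear-encoded member of each complex in control cancer cells, the 5 highest and 5 lowest past 50 CPM by the interval bound nearer to 1, isoform pairs, members with at least 50 CPM in a class and at least 4 times higher in it, and genes of the mitophagy and biogenesis lists with at least 20 CPM in cancer cells, with exceptions marked, and 1 gene of the mitophagy list is not reported here. Positions are from GENCODE M21 and promoters from RefSeq, and motifs were shortened to at most 9 letters after longer forms had been searched. Pandas 2.3.3, scipy 1.17.1, numpy 2.4.6 and matplotlib 3.10.9 were run under Python 3.11.15. The code for the intervals was run on simulated counts with Poisson error only, which cannot cover differences between cells, mice or libraries.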

Additional observations from a re-analysis of the deposited data

Results flagged for a closer look

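Of the 13 mitochondrial-encoded genes, 5 had ratios of ENZ over control on opposite sides of 1 in cancer cells and in pooled immune cells, with intervals of counting error that left out 1. mt-Nd2 had a ratio of 1.09 in cancer cells and 0.835 in immune cells. mt-Nd3 had 1.20 and 0.907, and mt-Nd6 had 1.17 and 0.910. mt-Nd4 had 1.03 and 0.943, and mt-Co2 had 1.01 and 0.811. The pooled immune value did not hold for every immune class, and the mix of classes differed, with 1576 and 764 macrophages. mt-Nd2 and mt-Co2 were below 1 in 7 of the 8 gated classes, and mt-Nd6 in 5 of the 7 where it passed 50 CPM. mt-Nd3 and mt-Nd4 were below 1 in 5 of 8. In monocytes and macrophages both lay slightly above 1, with intervals that held 1. The difference between the cell classes was not tested. With ribosomal RNA-like UMIs left out of the total, immune cells had ratios of 0.999 (0.984 to 1.02) for mt-Nd4, 0.961 (0.917 to 1.01) for mt-Nd3 and 0.965 (0.891 to 1.05) for mt-Nd6, whose intervals hold 1. Those of mt-Nd2, at 0.886 (0.870 to 0.902), and mt-Co2, at 0.859 (0.851 to 0.868), were still below 1, and the ratios of all 5 in cancer cells were still above 1. Median-of-ratios scaling, which lowers every log2 ratio of cancer cells by 0.058, puts mt-Co2 and mt-Nd4 below 1 in cancer cells too, so that these no longer lie on opposite sides.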

How the results depend on the processing

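No paired analysis was possible because the labels give no second library of either treatment. The values here are log2 ratios of summed CPM, ENZ over control. The nuclear-encoded ratio was below 0 in cancer cells under 11 alternatives (-0.21 to -0.13) and in immune cells under 13 (-0.27 to -0.092), as was the mitochondrial-encoded ratio in immune cells under 13 (-0.34 to -0.18). In cancer cells the mitochondrial-encoded ratio turned to 0.016 with ribosomal RNA-like UMIs left out of the total, an alternative chosen after seeing the data. The same alternative gave -0.13 for nuclear-encoded members of cancer cells, and -0.19 and -0.11 for mitochondrial-encoded and nuclear-encoded genes of immune cells.

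In cancer cells the mitochondrial-encoded and nuclear-encoded values were -0.080 and -0.15 with the mean of each barcode's CPM, -0.0074 and -0.15 without ribosomal protein and ribosomal RNA-like UMIs in the total, -0.072 and -0.21 with median-of-ratios scaling, and -0.059 and -0.14 without the 5% of barcodes with the most UMIs. At least 5000 UMIs gave -0.011 for the former and a stricter gate -0.15 for the latter. The cause was not tested. In immune cells the values were -0.18 and -0.092, -0.23 and -0.16, and -0.34 and -0.27 under the first 3 of these settings. They were -0.28 and -0.22 with at least 2000 UMIs and -0.31 and -0.22 with at least 5000 UMIs. For mitochondrial-encoded genes alone, at most 20% mitochondrial UMIs gave -0.26, a total without mitochondrial-encoded genes -0.28 and a stricter gate -0.26. Other settings were added after seeing the data. With every immune class weighted alike the values were -0.30 and -0.21, and without neutrophils -0.31 and -0.24.

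Of nuclear-encoded members in cancer cells, 1 was called in the report. The count was 0 with the mean of each barcode's CPM, 0 without ribosomal protein and ribosomal RNA-like UMIs, 0 without ribosomal RNA-like UMIs alone, 0 with a stricter gate and 0 without the 5% of barcodes with the most UMIs. It was 8, all lower, with median-of-ratios scaling, which moved the median of all genes by 0.058 on the log2 scale. Some of these shifts, such as those of the stricter gate, were about the size of the counting error, and having 1 library per condition limits every comparison of the libraries.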

Other observations

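Red blood cell transcripts were scarcer in the immune and cancer gates of the ENZ library, but not among barcodes that passed no gate, which held most of them. The 4 hemoglobin genes summed to 23.7 and 3.19 CPM in immune cells, in which NK cells (177 and 2.22 CPM) and neutrophils (63.9 and 1.22 CPM) differed most and monocytes (6.56 and 4.14 CPM) and macrophages (6.57 and 2.94 CPM) less, and to 2.71 and 1.33 CPM in cancer cells. They summed to 392 and 434 CPM among barcodes that passed no gate, and to 3.67 and 3.68 CPM in dendritic cells. RNA outside cells held 3.81% mitochondrial-encoded and 2.002% nuclear-encoded UMIs in control, and 3.46% and 1.82% in ENZ. Both the mitochondrial-encoded and the nuclear-encoded shares lay above those of every gated class given a value in the same library. Mitochondrial-encoded UMIs per nuclear-encoded UMI were 1.90 and 1.90 in RNA outside cells.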
